A study of Mus musculus with 35 samples.

Results

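The 8 genes described here carry the uptake and metabolism of glutamate in astrocytes: the glutamate transporters Slc1a2 and Slc1a3, the neutral amino acid transporter Slc1a4, glutamine synthetase (Glul), glutamate dehydrogenase (Glud1), the glutamine carrier Slc38a3, and the metabotropic glutamate receptors Grm3 and Grm5. They were taken as a named list, 8 of the 54119 genes in the files, and all 8 passed the filter on low counts in every comparison. Their levels were followed in 35 RNA-seq libraries of cells sorted with anti-ACSA2 magnetic beads from the brains of male C57BL/6JRj mice, an inbred laboratory strain with no engineered allele named in the labels. From the hypothalamus there were 5 libraries of mice on a high-fat high-sugar diet (HFHS, given as 58% without a stated basis) and 6 of mice on standard chow (SC). The hippocampus gave 7 HFHS and 5 SC libraries, and the cortex 6 HFHS and 6 SC libraries. Diets began at 8 to 9 weeks of age and lasted 4 months, and each library holds tissue of 2 pooled animals, so that single mice cannot be followed. ACSA2 is an epitope of the astrocyte sodium pump subunit Atp1b2. Cortex cells passed over LS columns with larger reagent volumes, whereas cells of the other regions passed over MS columns, so region and sorting procedure cannot be told apart.

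Astrocytes take up most of the glutamate that neurons release. Slc1a2 (GLT-1) and Slc1a3 (GLAST) move it into the cell with sodium, Glul joins it with ammonia to form glutamine, and Slc38a3 (SNAT3) exports glutamine for neurons to turn back into glutamate. Glud1 sends glutamate into the mitochondrial citric acid cycle instead, and the receptors Grm3 and Grm5 let astrocytes sense glutamate outside the cell. In the adult rodent forebrain GLT-1 is the main transporter, while GLAST is best known from cerebellar glia.

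Each library held 47578560 to 65982495 estimated reads. The astrocyte markers were present throughout, with none of 20 at 0 TPM in any library, but the sort was not pure. TPM, the unit used below, is a level per length of transcript, scaled to the same total in every library. Summed over the list, the 20 astrocyte markers ranged from 6420 to 21800 TPM in HFHS hypothalamus and from 4870 to 7490 TPM in SC hypothalamus. In the hippocampus that sum ranged from 2600 to 15400 TPM on HFHS and from 2840 to 13400 TPM on SC. The cortex libraries summed to 16400 to 27000 TPM on HFHS and to 13200 to 29400 TPM on SC. The 12 oligodendrocyte markers reached 36900 to 98200 TPM in HFHS hypothalamus and 68200 to 94500 TPM in SC hypothalamus. In HFHS and SC hippocampus they reached 34000 to 87000 and 45400 to 72800 TPM, and in HFHS and SC cortex 7330 to 61200 and 6780 to 51100 TPM. None of the 12 was at 0 in any library. The 12 ependymal markers set the cortex apart, at 293 to 649 TPM in HFHS and 275 to 641 TPM in SC cortex. They were at 3890 to 6990 TPM in HFHS and 4970 to 9230 TPM in SC hypothalamus. In HFHS and SC hippocampus they were at 1060 to 5430 and 1390 to 3050 TPM, so these 2 regions overlapped on HFHS and not on SC. The 8 choroid plexus markers were highest in hippocampus, at 3950 to 29100 TPM on HFHS and 137 to 32700 TPM on SC. Their part in the region results was not tested. Replicate 2 of HFHS hypothalamus stood apart by its high astrocyte markers (Aldh1l1, 217 TPM against 56.1 to 71.6 TPM in the other 4), and replicate 6 of SC hypothalamus, of HFHS cortex and of SC cortex had the shortest mean transcript lengths (2483, 2179 and 1922 bases). Results that rest on these libraries are given with and without them.

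Most of these genes were lower in hypothalamus and hippocampus than in cortex. On SC, hypothalamus over cortex, the difference was widest for Slc1a2, then Slc1a3, Glul, Grm3, Glud1 and Slc38a3 in that order. Counts were compared with edgeR's quasi-likelihood test in 1 model over the 6 groups, with Benjamini-Hochberg adjustment over 21574 genes and a threshold of 0.05. Of the 8 genes, 4 were lower in HFHS hypothalamus than in HFHS cortex and 6 were lower in SC hypothalamus than in SC cortex. For all genes tested the share called was 23.9% on HFHS (9.21% lower) and 36.1% on SC (18.3% lower). Against the cortex, the hippocampus was lower for 8 of 8 genes on HFHS, where 24.2% of all genes were called (10.8% lower), and for 7 of 8 on SC, where 30.8% were called (15.3% lower). The median log2 fold change of the 8 genes, hypothalamus over cortex, was -1.22 on HFHS and -1.79 on SC, against 0.01 and 0.06 for all genes. Over the same contrasts, 4 of 20 astrocyte markers were lower in HFHS hypothalamus than in cortex and 18 of 20 in SC hypothalamus. The hippocampus was lower than the cortex for 19 of 20 markers on HFHS and 18 of 20 on SC. In bulk samples, fewer astrocytes and less RNA per astrocyte cannot be told apart, and the part of the marker difference in these results was not tested.

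**Figure D1:**
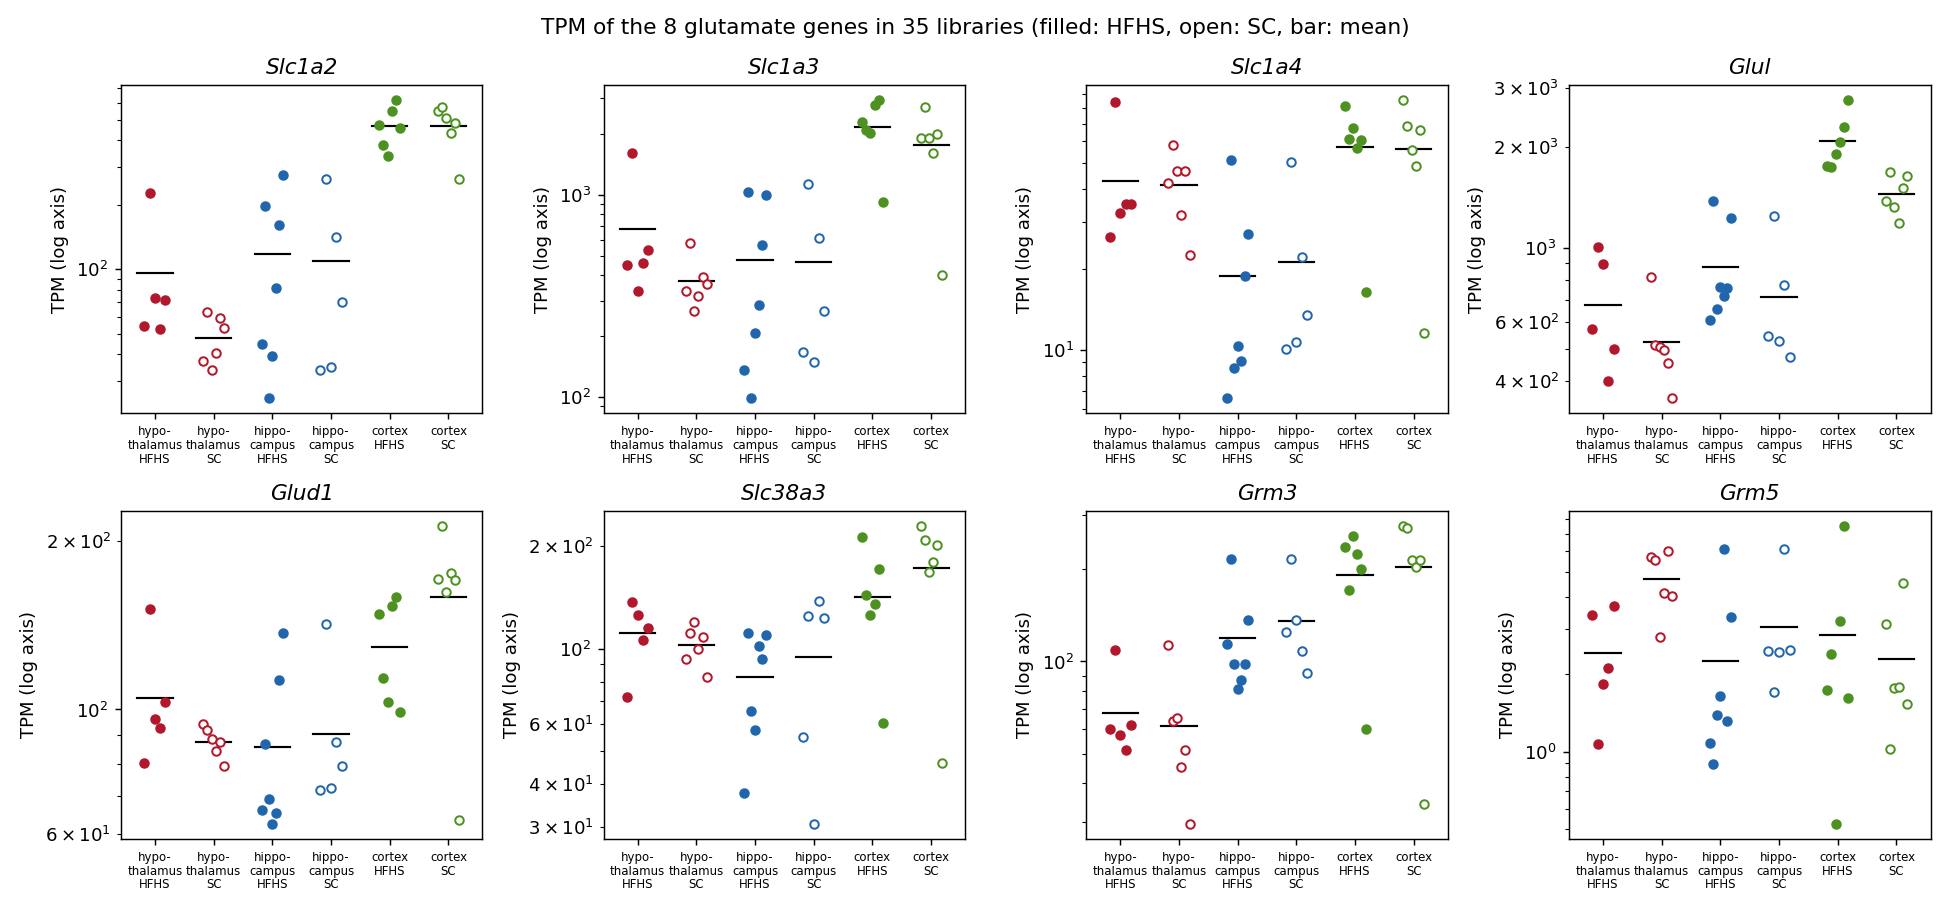
TPM on a log axis for each of the 8 genes, 1 point per library, in 6 groups with HFHS left of SC in each region (filled, HFHS; open, SC; bar, mean). Slc1a2 lies between 263 and 618 TPM in the cortex and, in the hypothalamus, between 33.8 and 228 TPM, with no overlap between these regions.

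Slc1a2 (ENSMUSG00000005089.15, chromosome 2, 102658659 to 102790784, plus strand, GRCm38) encodes the transporter that clears most synaptic glutamate in the forebrain. Its level was 54.4, 228, 73.1, 52.3 and 71.7 TPM in the HFHS hypothalamus libraries 1 to 5, against a lowest of 337, a median of 464 and a highest of 618 TPM in HFHS cortex. In SC hypothalamus the lowest, median and highest were 33.8, 46.7 and 63.0 TPM, against 263, 495 and 570 TPM in SC cortex. Every hypothalamus library lay below every cortex library on both diets, as was so for 2% of all genes tested on HFHS and 2.75% on SC. The fitted fold, hypothalamus over cortex, was 0.130 on HFHS (log2 fold change -2.94 ± 0.58, SE; adjusted p = 0.000233) and 0.0572 on SC (-4.13 ± 0.57; adjusted p = 7.4e-07). Without replicate 2 of HFHS hypothalamus the HFHS value was -3.52.

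The hippocampus libraries spread widely for Slc1a2. They gave 24.9, 81.6 and 274 TPM as lowest, median and highest on HFHS, and 33.8, 264, 35, 141 and 70.6 TPM in the SC libraries 1 to 5. Replicates 2, 6 and 7 on HFHS and replicates 2 and 4 on SC were high, at 141 TPM or more, and the remaining 7 were at 81.6 TPM or less. Both groups were lower than cortex (hippocampus over cortex, -2.34 ± 0.50 on HFHS, adjusted p = 0.00074; -2.62 ± 0.57 on SC, adjusted p = 0.000839). Leaving out replicate 2 of SC hippocampus made the SC value -3.20. Between hypothalamus and hippocampus the log2 fold change was -0.61 ± 0.51 on HFHS (adjusted p = 0.562) and -1.51 ± 0.53 on SC (adjusted p = 0.0623), so these regions were not separated by the test. The SC difference was called without replicate 1 (-1.74, adjusted p = 0.0465) or replicate 3 (-1.72, adjusted p = 0.0456) of SC hippocampus, and without the 3 short libraries (-1.74, adjusted p = 0.0361).

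Slc1a3 (ENSMUSG00000005360.14, chromosome 15, 8634124 to 8710764, minus strand) encodes the other high-affinity glutamate transporter of astrocytes. HFHS hypothalamus libraries 1 to 5 had 448, 1607, 333, 459 and 535 TPM, and HFHS cortex libraries had 922, 2183 and 2936 TPM as lowest, median and highest. SC hypothalamus had 265, 350 and 576 TPM, against 403, 1903 and 2697 TPM in SC cortex. In TPM the HFHS groups overlapped through the high replicate 2 of hypothalamus and the low replicate 6 of cortex, and the SC groups through replicate 6 of cortex. The log2 CPM scale used here is reads scaled by library size and by a TMM factor per library, not by transcript length. On it the regions did not overlap, with 9.81 to 12.15 in HFHS hypothalamus against 12.45 to 13.02 in HFHS cortex. On SC the ranges were 9.21 to 10.31 in hypothalamus and 11.62 to 13.16 in cortex. On that scale 4.19% of all genes were lower without overlap on HFHS and 8.3% on SC. In CPM without the TMM factor the HFHS groups overlapped, at 998 to 4658 in hypothalamus and 3878 to 8566 in cortex. The SC groups did not, at 668 to 1466 in hypothalamus and 1896 to 8116 in cortex. Slc1a3 was lower in hypothalamus than in cortex on HFHS (-1.88 ± 0.56, adjusted p = 0.0123) and on SC (-2.74 ± 0.54, adjusted p = 0.00015). Without replicate 2 of HFHS hypothalamus the HFHS value was -2.58.

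In the hippocampus Slc1a3 ranged from 98.6 to 1029 TPM on HFHS and from 149 to 1131 TPM on SC. The libraries high for Slc1a2 were also those high for Slc1a3. The fit gave -2.41 ± 0.50 on HFHS (adjusted p = 0.000608) and -2.32 ± 0.57 on SC (adjusted p = 0.00238) against cortex, and -3.01 on SC without replicate 2 of SC hippocampus. Hypothalamus over hippocampus was 0.53 ± 0.51 on HFHS (adjusted p = 0.62) and -0.42 ± 0.53 on SC (adjusted p = 0.709). The TPM ratio of Slc1a2 to Slc1a3 within a library, a description with no test, averaged 0.146 ± 0.0427 in HFHS and 0.129 ± 0.0175 in SC hypothalamus (SD, n = 5 and 6). It averaged 0.258 ± 0.0512 in HFHS and 0.234 ± 0.0227 in SC hippocampus (n = 7 and 5), and 0.243 ± 0.124 in HFHS and 0.322 ± 0.164 in SC cortex (n = 6 each). On SC every hypothalamus library, at 0.109 to 0.151, was below every hippocampus library, at 0.202 to 0.266, and every cortex library, at 0.211 to 0.653. On HFHS the ranges overlapped, with a ratio of 0.22 in replicate 3 of the hypothalamus and 0.114 to 0.142 in the others, against 0.188 to 0.325 in the hippocampus and 0.167 to 0.493 in the cortex. The highest cortex ratios, 0.493 on HFHS and 0.653 on SC, came from the libraries of short mean transcript length.

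Slc1a4 (ENSMUSG00000020142.12, chromosome 11, 20302180 to 20332713, minus strand), a sodium-dependent carrier of alanine, serine and cysteine (ASCT1), belongs to the same gene family but does not carry glutamate. Of the 3 Slc1a genes it differed least between hypothalamus and cortex. HFHS hypothalamus libraries 1 to 5 had 26.5, 84.4, 32.5, 35.1 and 35 TPM, and HFHS cortex had 16.5, 61.3 and 81.5 TPM as lowest, median and highest. In SC hypothalamus the values were 22.7, 44.3 and 58.3 TPM, and in SC cortex 11.6, 60.9 and 85.8 TPM. Both pairs overlapped, with log2 fold changes of -0.57 ± 0.43 (adjusted p = 0.37) on HFHS and -0.87 ± 0.41 (adjusted p = 0.0948) on SC. The hippocampus held the least, 6.59, 10.3 and 51.2 TPM on HFHS and 10.1, 50.3, 10.7, 22.2 and 13.5 TPM in the SC libraries 1 to 5. It was lower than cortex by the test on both diets (-1.74 ± 0.40 on HFHS, adjusted p = 0.0015; -1.74 ± 0.45 on SC, adjusted p = 0.00352). Without replicate 2 of the hippocampus group these values were -2.21 on HFHS and -2.34 on SC. Hypothalamus over hippocampus was 1.17 ± 0.41 on HFHS (adjusted p = 0.0812) and 0.87 ± 0.43 on SC (adjusted p = 0.222), and became a call without replicate 2 of the hippocampus group (1.64, adjusted p = 0.00743, on HFHS; 1.47, adjusted p = 0.0352, on SC).

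Glul (ENSMUSG00000026473.15, chromosome 1, 153899944 to 153909723, plus strand), the enzyme that makes glutamine, was among the most abundant of the 8 in every region. HFHS hypothalamus libraries 1 to 5 had 571, 1002, 891, 401 and 500 TPM, and HFHS cortex had 1737, 1988 and 2758 TPM as lowest, median and highest. SC hypothalamus had 355, 501 and 818 TPM, and SC cortex 1183, 1441 and 1676 TPM. No hypothalamus library reached the lowest cortex library on its diet. The log2 fold change was -2.19 ± 0.34 on HFHS (adjusted p = 9.24e-06) and -2.47 ± 0.32 on SC (adjusted p = 3.49e-07). The hippocampus medians lay between, with 608, 759 and 1375 TPM on HFHS and 545, 1245, 527, 775 and 472 TPM in the SC libraries 1 to 5. All HFHS hippocampus libraries were below all HFHS cortex libraries, as for Slc1a2 and 1.21% of all genes. The gene was lower than in cortex (-1.62 ± 0.30 on HFHS, adjusted p = 0.000155; -1.69 ± 0.34 on SC, adjusted p = 0.000361). Hypothalamus over hippocampus was -0.57 ± 0.32 on HFHS (adjusted p = 0.314) and -0.78 ± 0.32 on SC (adjusted p = 0.125). A short transcript, Glul-202 (681 bases), held 54.2% of the Glul TPM on average and 17.2% of the reads. Glul-201 (2792 bases) held 38.4% of the TPM and 75.1% of the reads.

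Glud1 (ENSMUSG00000021794.16, chromosome 14, 34310727 to 34345265, plus strand), the mitochondrial enzyme that turns glutamate into a citric acid cycle intermediate, differed by less. Its levels were 80.2, 151, 96.3, 92.8 and 103 TPM in HFHS hypothalamus libraries 1 to 5, against 99.1, 131 and 159 TPM in HFHS cortex. SC hypothalamus was tight, at 79.2, 88.0 and 94.3 TPM, against 63.5, 170 and 213 TPM in SC cortex. In TPM only replicate 6 of SC cortex, one of the short libraries, lay within or below the SC hypothalamus range, and in log2 CPM no cortex library did (7.29 to 7.52 in SC hypothalamus, 8.54 to 9.08 in SC cortex). The test called the SC difference (-1.40 ± 0.21, adjusted p = 2.85e-06) and not the HFHS one (-0.57 ± 0.22, adjusted p = 0.0504). The HFHS difference was called without replicate 2 of HFHS hypothalamus (-0.78, adjusted p = 0.00918) and without replicate 3 of HFHS cortex (-0.67, adjusted p = 0.021). HFHS hippocampus had 62.4, 69.1 and 137 TPM, and SC hippocampus 71.8, 142, 72.4, 87.5 and 79.2 TPM. Both were lower than cortex (-0.86 ± 0.20, adjusted p = 0.00158, on HFHS; -1.27 ± 0.22, adjusted p = 8e-05, on SC).

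Slc38a3 (ENSMUSG00000010064.15, chromosome 9, 107650634 to 107669530, minus strand), which carries glutamine across the astrocyte membrane, was called in the same contrasts with the cortex as Glud1. HFHS hypothalamus libraries 1 to 5 had 72.3, 137, 126, 106 and 115 TPM, and HFHS cortex had 60.4, 140 and 213 TPM as lowest, median and highest. SC hypothalamus had 82.7, 104 and 120 TPM, and SC cortex 46.3, 191 and 230 TPM. In TPM the groups overlapped on HFHS, and on SC only through replicate 6 of SC cortex. In log2 CPM they overlapped on HFHS (6.97 to 7.76 in hypothalamus, 7.68 to 8.41 in cortex) and not on SC (6.94 to 7.38 in hypothalamus, 7.86 to 8.63 in cortex). In CPM without the TMM factor the SC groups overlapped. Replicate 6 of SC cortex was at 140 CPM there, against 138 to 187 CPM in SC hypothalamus. The gene was lower in hypothalamus on SC (-1.23 ± 0.26, adjusted p = 0.000418) and was not called on HFHS (-0.58 ± 0.28, adjusted p = 0.13). Hippocampus libraries, at 37.7 to 111 TPM on HFHS and 30.5 to 138 TPM on SC, were lower than cortex on both diets (-0.93 ± 0.25, adjusted p = 0.00624; -1.24 ± 0.28, adjusted p = 0.0012). On the scale log2(TPM + 1), tested with limma, these Slc38a3 calls were lost on HFHS (adjusted p = 0.098) and on SC (adjusted p = 0.0537), and so was that against SC hypothalamus (adjusted p = 0.173).

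Grm3 (ENSMUSG00000003974.6, chromosome 5, 9485541 to 9725170, minus strand) encodes mGluR3, the Gi-coupled receptor of adult astrocytes. It was the single gene of the 8 called between hypothalamus and hippocampus, and that on SC. HFHS hypothalamus libraries 1 to 5 had 60.4, 109, 57.6, 51.4 and 61.8 TPM, and HFHS hippocampus had 81.5, 98.4 and 217 TPM as lowest, median and highest. SC hypothalamus had 29.4, 57.6 and 113 TPM, and SC hippocampus libraries 1 to 5 had 125, 216, 137, 108 and 91.5 TPM. On each diet 1 hypothalamus library reached into the hippocampus range, replicate 2 on HFHS and replicate 1 on SC. The log2 fold change, hypothalamus over hippocampus, was -0.84 ± 0.29 on HFHS (adjusted p = 0.0759) and -1.28 ± 0.29 on SC (adjusted p = 0.00443). Of the 8 genes 0 were called between these regions on HFHS, where 6.42% of all genes were, and 1 on SC, where 10% were (4.13% lower). Without replicate 2 of HFHS hypothalamus the HFHS difference was -1.1 (adjusted p = 0.0312), and without the 3 short libraries -0.86 (adjusted p = 0.0262).

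Cortex held the most Grm3, at 60.3, 213 and 258 TPM on HFHS and 34.2, 214 and 278 TPM on SC; the lowest value on each diet was the short replicate 6. Hypothalamus was lower than cortex on both diets (-1.64 ± 0.30, adjusted p = 0.000106, on HFHS; -2.19 ± 0.29, adjusted p = 3.66e-07, on SC). Hippocampus was lower too (-0.80 ± 0.27, adjusted p = 0.0256, on HFHS; -0.91 ± 0.29, adjusted p = 0.0187, on SC). The call against the hippocampus lay near the threshold. Leaving out replicate 4, 5 or 6 of HFHS hippocampus or replicate 4 of HFHS cortex gave adjusted p values up to 0.0582, and leaving out replicate 4 or 5 of SC hippocampus or replicate 2 of SC cortex gave values up to 0.0578, none of them calls, while the log2 fold change stayed between -0.82 and -0.72. On log2(TPM + 1), tested with limma, the adjusted p was 0.233 on HFHS and 0.481 on SC.

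Grm5 (ENSMUSG00000049583.15, chromosome 7, 87584168 to 88134907, plus strand) encodes mGluR5, a Gq-coupled receptor of young astrocytes and of neurons. It was the least abundant of the 8, and in no library above 7.56 TPM. HFHS hypothalamus libraries 1 to 5 had 3.40, 1.07, 1.83, 2.12 and 3.68 TPM, against 2.78, 4.86 and 6.01 TPM as lowest, median and highest in SC hypothalamus. In the hippocampus it had 0.895, 1.39 and 6.12 TPM on HFHS and 2.47, 1.71, 2.43, 6.14 and 2.49 TPM in the SC libraries 1 to 5. Cortex had 0.522, 2.07 and 7.56 TPM on HFHS and 1.02, 1.78 and 4.54 TPM on SC. These values sum all its transcripts, coding or not. The coding Grm5-202 (8047 bases) held 35.3% of the Grm5 TPM on average and 79.0% of the reads. The processed transcript Grm5-205 (551 bases) held 40.7% of the TPM and 4.37% of the reads, and the retained-intron transcript Grm5-206 14.7% and 12.9%. On SC Grm5 was not called lower in either region, and its log2 fold changes were positive (0.98 ± 0.41, adjusted p = 0.0597, hypothalamus over cortex; 0.03 ± 0.43, adjusted p = 0.966, hippocampus over cortex). On HFHS it was lower in hippocampus than in cortex (-1.38 ± 0.40, adjusted p = 0.0097), a call that was lost without replicate 5 of HFHS cortex (adjusted p = 0.0509), in the fit on these groups alone (adjusted p = 0.0701) and on log2(TPM + 1) (adjusted p = 0.722). The hypothalamus difference from cortex on SC was called without replicate 5 of SC cortex (1.13, adjusted p = 0.0444). It was also called with DESeq2, in the fit on those groups alone, on log2(TPM + 1) with limma, and with replicate number as a block.

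**Figure D2:**
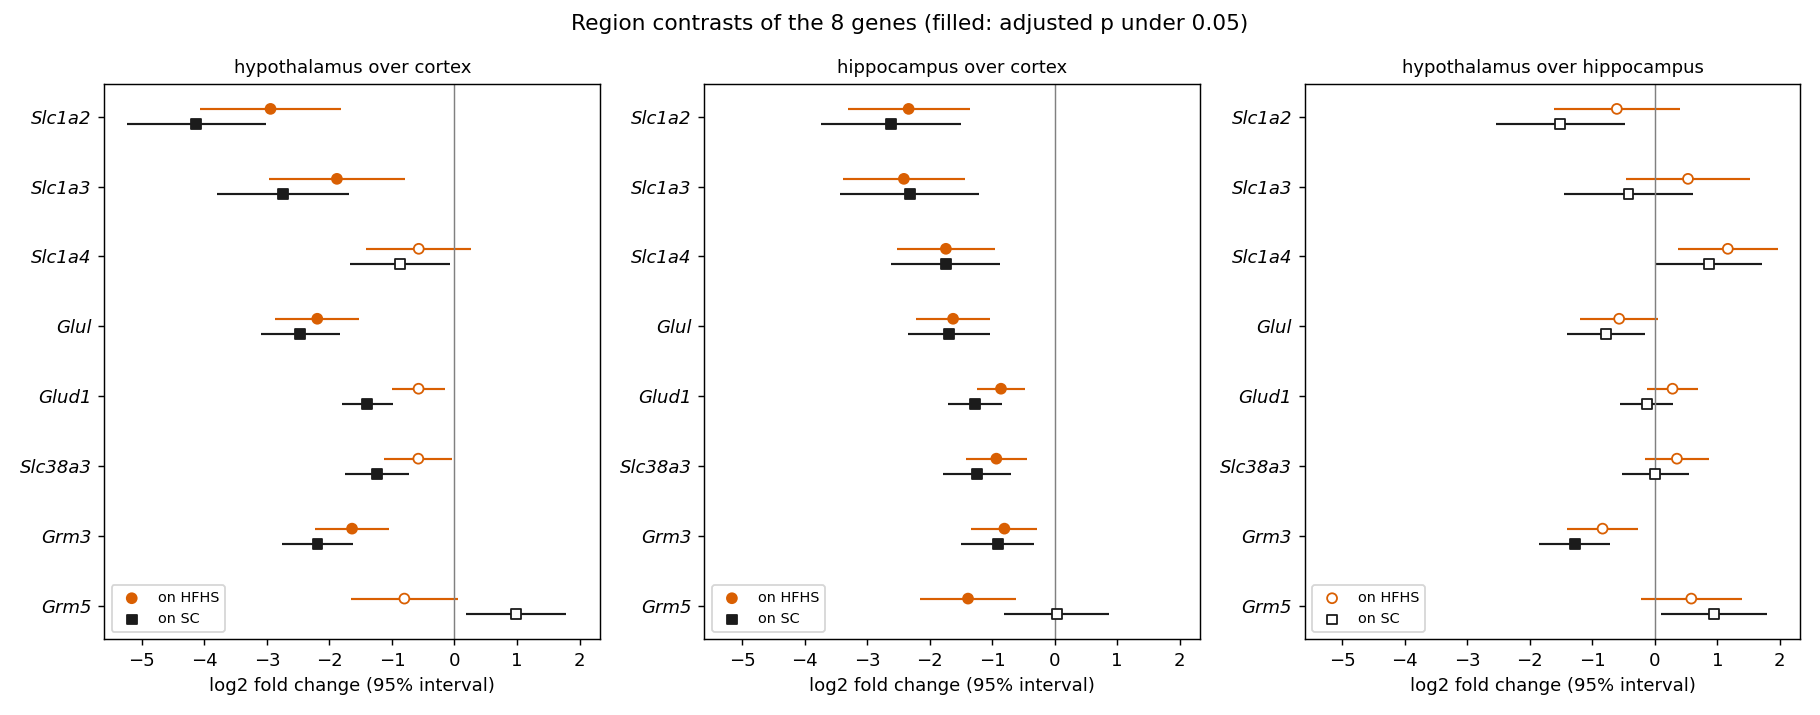
Log2 fold changes of the 8 genes with 95% intervals between regions, on HFHS (orange circles) and SC (black squares); filled symbols have an adjusted p under 0.05. Slc1a2 is farthest left against cortex (-4.13 in SC hypothalamus), and Grm3 on SC is the single filled symbol between hypothalamus and hippocampus.

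The 8 genes were also set against the astrocyte markers of the same library, which shifts all genes of that library by the same amount. For this the mean log2 CPM of the 20 markers was subtracted from each gene's log2 CPM, and the differences were tested with limma over all genes. This is a level relative to the markers, not a corrected level, since the markers may differ between regions too. Relative Slc1a2 was 0.35 ± 0.35 in HFHS hypothalamus and -0.05 ± 0.37 in SC hypothalamus (SD, n = 5 and 6). In HFHS and SC hippocampus it was 1.73 ± 0.42 and 1.55 ± 0.32 (n = 7 and 5), and in HFHS and SC cortex 2.42 ± 0.42 and 2.31 ± 0.43 (n = 6 each). Its highest hypothalamus value, 0.89, was below the lowest hippocampus value, 1.03. How many of all genes were so separated on this scale was not counted. Hypothalamus over cortex was -2.07 on HFHS (adjusted p = 1.21e-05) and -2.37 on SC (adjusted p = 1.58e-07). Hypothalamus over hippocampus was -1.38 on HFHS (adjusted p = 0.0128) and -1.61 on SC (adjusted p = 0.00731), of which the SC call was lost on log2(TPM + 1) (-1.24, adjusted p = 0.272). In that contrast the median of all genes was -0.99 on HFHS and -0.39 on SC. There 16.8% of genes were called on HFHS (16.1% lower) and 1.47% on SC (0.811% lower).

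On this relative scale the median of all genes moved as well. It rose by 1.09 (HFHS) and 1.94 (SC) in hypothalamus over cortex and by 2.12 (HFHS) and 2.33 (SC) in hippocampus over cortex, the markers themselves being lower there. The shares of genes called were 32.4% and 78.3% in hypothalamus over cortex, on HFHS and SC, and 86.5% and 84.2% in hippocampus over cortex. Few of these were lower: 0.987% and 0.964% for the hypothalamus and 0.399% and 0.394% for the hippocampus. The shares called higher were 77.3% in SC hypothalamus and 86.1% and 83.8% in HFHS and SC hippocampus. Slc1a2 in hippocampus over cortex was -0.69 on HFHS (adjusted p = 0.0477) and -0.76 on SC (adjusted p = 0.0463), and neither was a call without the 3 short libraries (adjusted p = 0.122 and 0.121). Slc1a3 was lower in hypothalamus than in cortex on HFHS (-1.16, adjusted p = 0.00752) and SC (-0.89, adjusted p = 0.0119). Against hippocampus Slc1a3 gave -0.25 on HFHS (adjusted p = 0.548) and -0.41 on SC (adjusted p = 0.575), where Slc1a2 was called. In hippocampus over cortex it was -0.90 on HFHS (adjusted p = 0.00704) and -0.48 on SC (adjusted p = 0.175). On log2(TPM + 1) the Slc1a3 calls were lost, with adjusted p values of 0.0611 and 0.0637 in HFHS and SC hypothalamus and 0.0507 in HFHS hippocampus. Slc1a4 was higher in SC hypothalamus than in SC cortex (0.96, adjusted p = 0.0106), by less than the shift of all genes.

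Relative Grm3 was higher in hippocampus than in cortex (1.17 on HFHS, adjusted p = 0.00755; 1.33 on SC, adjusted p = 0.00583), by less than the shift of all genes, whereas its level per library was lower there. It was lower in hypothalamus than in hippocampus (-1.85 on HFHS, adjusted p = 0.00744; -1.70 on SC, adjusted p = 0.0298). The SC value was no call without the 3 short libraries (adjusted p = 0.0769), without any 1 of 7 single libraries (adjusted p up to 0.123) and on log2(TPM + 1) (adjusted p = 0.0752). Glul was lower in hypothalamus than in hippocampus on HFHS (-1.60, adjusted p = 0.0134; 0.0768 without replicate 2 of HFHS hypothalamus), and was -1.10 on SC (adjusted p = 0.241). Glud1 and Slc38a3 were higher in hippocampus than in cortex on both diets, by 0.81 to 1.15, less than the shift of all genes, and Slc38a3 on SC lost the call without the 3 short libraries (adjusted p = 0.0734). Grm5 was higher outside the cortex on SC (2.81 in hypothalamus, adjusted p = 3.97e-05; 2.27 in hippocampus, adjusted p = 0.000605), close to or above that shift. The 9 markers of oligodendrocyte precursors, cells that also express Grm5 in rodents, were higher there too on this scale, 9 of 9 in each region, with medians of 5.52 in hypothalamus and 4.17 in hippocampus. In counts not set against the markers, 9 of 9 were higher in SC hypothalamus than in cortex (median 3.58) and 8 of 9 in SC hippocampus (median 1.63). Their part in the Grm5 values was not tested.

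**Figure D3:**
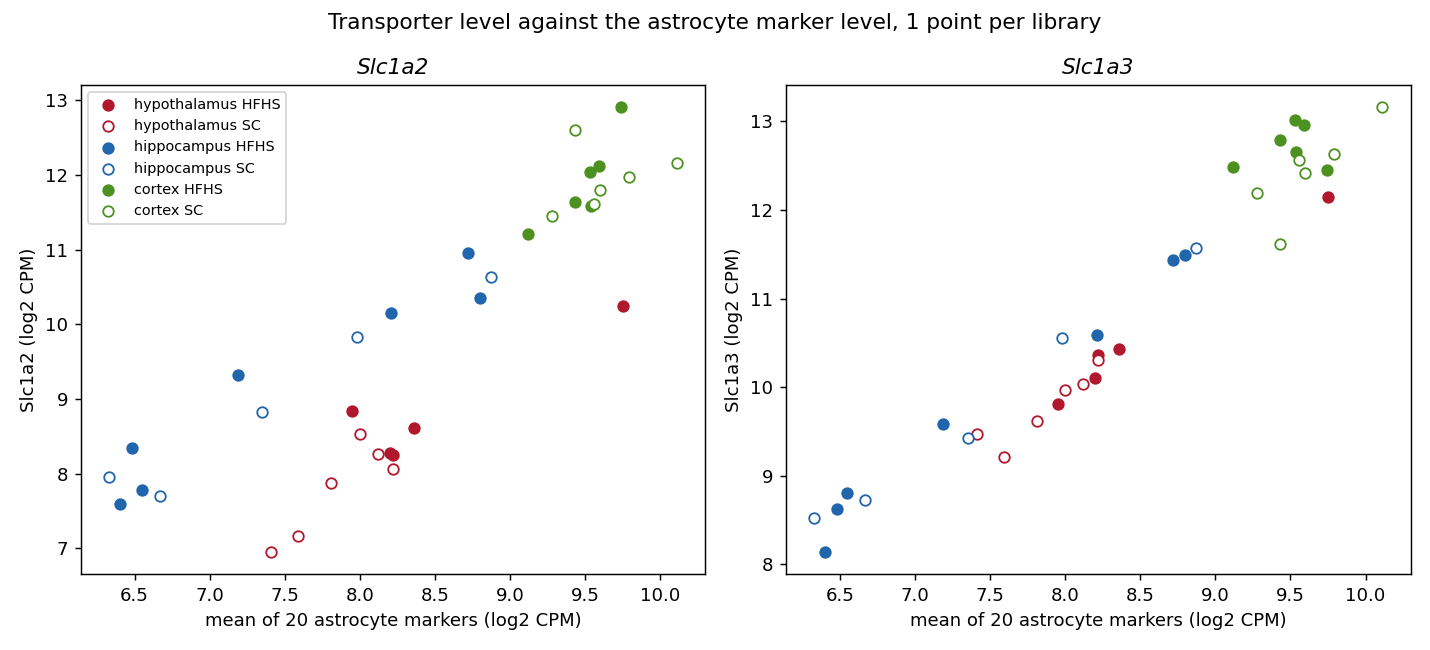
Log2 CPM of Slc1a2 (left) and Slc1a3 (right) against the mean log2 CPM of 20 astrocyte markers, 1 point per library (filled, HFHS; open, SC). The hypothalamus points of Slc1a2 lie below the hippocampus and cortex points of like marker level. Those of Slc1a3 mostly lie lower than hippocampus points of like marker level too, by less. Relative to the markers, Slc1a3 overlaps between these regions (1.86 to 2.41 in HFHS and 1.62 to 2.09 in SC hypothalamus). The hippocampus ranges are 1.74 to 2.72 on HFHS and 2.06 to 2.7 on SC.

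The Slc1a2 transcripts differ in how they end, and that end was measured too. Salmon, the tool that made the files, divides the reads of a gene among its annotated transcripts. Of the 12 in the files, Slc1a2-202 (11595 bases) held 77.0% of the Slc1a2 TPM on average and Slc1a2-204 (2093 bases) 12.6%, and the other 10 each held 3.11% or less. Both start at the same start codon. Slc1a2-202 ends its protein in exon 11, followed by 9250 bases of 3′ sequence, and Slc1a2-204 reads on past the end of exon 10 into a stop codon. The ends, with the stop codon in capitals, are in GENCODE M21 on GRCm38 (plus strand, chr2:102781463-102781534 and chr2:102777656-102777694).
Slc1a2-202: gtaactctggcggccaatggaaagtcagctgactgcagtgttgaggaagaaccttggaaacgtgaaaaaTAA
Slc1a2-204: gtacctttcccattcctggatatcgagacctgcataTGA
In rodents these ends are known as the GLT-1a and GLT-1b forms of the transporter, and the GLT-1b end binds PDZ-domain proteins. Transcripts Slc1a2-201 and Slc1a2-203, which begin downstream with another first coding exon, held 1.91% and 1.63% of the TPM over all libraries. Slc1a2-203 was at 0 in every hippocampus and cortex library. In the hypothalamus it averaged 4.02 ± 5.99% on HFHS and 6.16 ± 8.78% on SC (SD), from 0 to 13.4% and from 0 to 19.6%.

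On HFHS Slc1a2-204 took a larger share in the hypothalamus than in the cortex or hippocampus. Its share of the Slc1a2 TPM was 26.6, 22.0, 23.5, 15.8 and 17.9% in the HFHS hypothalamus libraries 1 to 5, against 0, 6.93 and 14.6% as lowest, median and highest in HFHS cortex. In HFHS hippocampus it was 0, 5.31 and 16.2%. Every HFHS hypothalamus library exceeded every HFHS cortex library, and 1 of 7 hippocampus libraries, replicate 2, reached the hypothalamus range. The mean shares were 21.2 ± 4.32% in HFHS hypothalamus and 7.14 ± 4.98% in HFHS cortex (SD, n = 5 and 6), 14 points apart (exact permutation test on the absolute difference, p = 0.00433; adjusted p = 0.026 over 18 tests). Against HFHS hippocampus, at 5.62 ± 5.56% (n = 7), the difference was 15.5 points (exact permutation test, p = 0.00253; adjusted p = 0.026). The share of Slc1a2-202 was 66.8 ± 9.39% in HFHS hypothalamus and 85.8 ± 5.24% in HFHS cortex (exact permutation test, n = 5 and 6, adjusted p = 0.026). Slc1a2-201, which stops at the same codon as Slc1a2-204, held less in HFHS hypothalamus (0.814 ± 0.897%) than in HFHS cortex (2.86 ± 0.726%), with no test of its own. Summed, a choice made after seeing the data, both held 22 ± 4.19% in HFHS hypothalamus, against 8.31 ± 4.4% in HFHS hippocampus (n = 7) and 9.99 ± 4.49% in HFHS cortex (exact permutation test, adjusted p = 0.0227 and 0.039).

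On SC the Slc1a2-204 share was 9.09, 24.6 and 28.2% in hypothalamus as lowest, median and highest, against 2.20, 15.3 and 21.3% in cortex and 5.18, 15.3, 3.26, 8.16 and 8.23% in the hippocampus libraries 1 to 5. These groups overlapped. The differences were 7.12 points from cortex (exact permutation test, adjusted p = 0.213) and 13.3 points from hippocampus (exact permutation test, adjusted p = 0.0649). The lowest hypothalamus and the lowest cortex value were those of the short libraries. Without the 3 short libraries 10 of the 18 tests passed, among them hypothalamus against hippocampus on SC (15.8 points) and HFHS against SC in the cortex (-8.11 points; each exact permutation test, adjusted p = 0.0429). Of the 18 tests 3 passed with all libraries, and 0 passed when replicate 1, 2, 3 or 5 of HFHS hypothalamus was left out. The Slc1a2-204 differences were then 12.7 to 14.8 points from cortex and 14.2 to 16.4 points from hippocampus, with an adjusted p of 0.0545. The p against cortex was 0.00476, the smallest the exact permutation test can give with 4 and 6 libraries. With any 1 of replicates 2 to 6 of HFHS cortex left out, 1 passed, and the difference from cortex was 12.6 to 14.5 points. Only 0 to 9502 reads of a library were assigned to Slc1a2-204, against 6312 to 305642 to Slc1a2-202, and the files hold no error for that division.

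**Figure D4:**
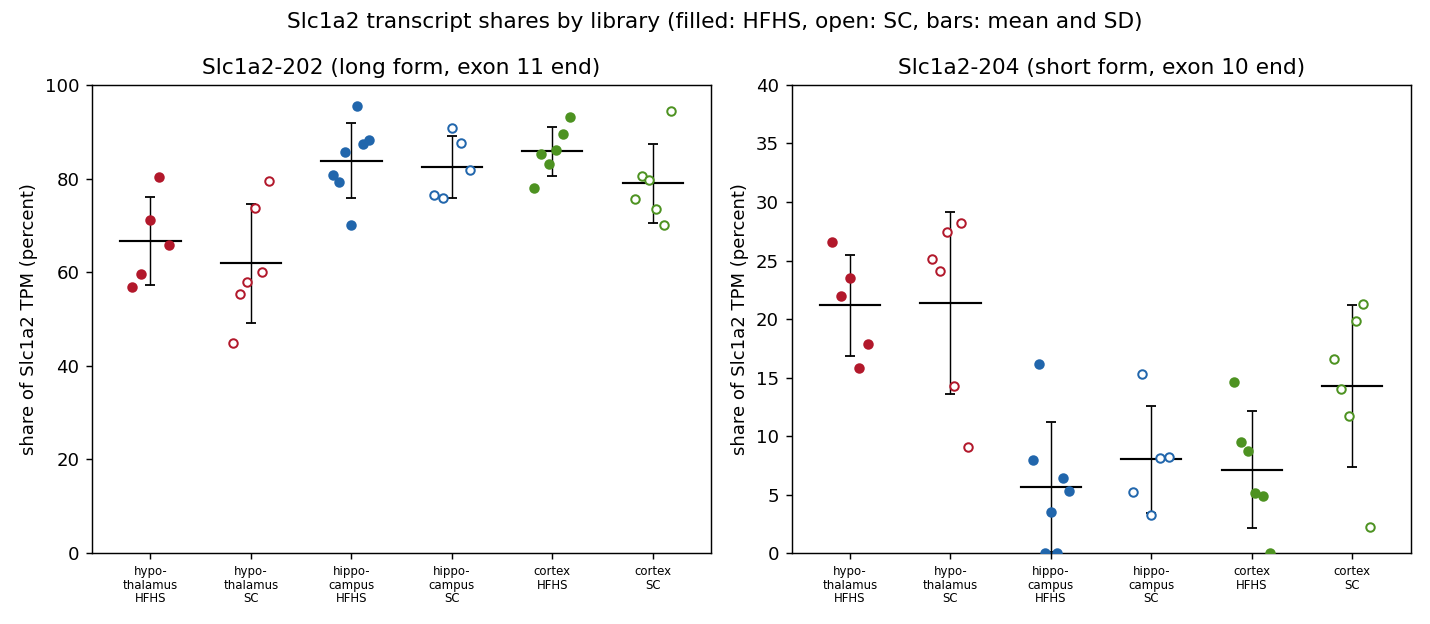
Percent of the Slc1a2 TPM held by Slc1a2-202 (left, axis 0 to 100) and Slc1a2-204 (right, shorter axis), 1 point per library, with mean and SD (filled, HFHS; open, SC). The Slc1a2-204 share averages 21.2% and 21.4% in HFHS and SC hypothalamus and 14.3% or less in the other groups.

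No diet difference in these 8 genes passed the edgeR test. With edgeR on each region alone, 0 of 8 were called in hypothalamus, hippocampus or cortex, as were 0 of 19272, 0 of 19036 and 0 of 17844 genes, so that percent called was 0 in all. At an unadjusted p under 0.05 there were 5 of the 8 in hypothalamus, where 8.5% of all genes were, 0 in hippocampus (5.17%) and 0 in cortex (9.26%). DESeq2 called 1 of the 8, Grm5 in hypothalamus, among 87 genes there, 15 in hippocampus and 504 in cortex. The difference in diet effect between regions was called for 0 of 21574 genes with edgeR (unadjusted p under 0.05 for 11.6% in hypothalamus against cortex, 9.3% in hippocampus against cortex and 2.01% in hypothalamus against hippocampus). Of the 8 genes 2, 1 and 0 had an unadjusted p under 0.05. DESeq2 gave 141, 23 and 4 calls for these.

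In the hypothalamus 7 of the 8 genes had a positive log2 fold change, HFHS over SC. Slc1a2 averaged 95.8 ± 74.3 TPM on HFHS and 47.8 ± 12.3 TPM on SC (SD, n = 5 and 6), and the fitted log2 fold change was 1.18 ± 0.40 (95% interval 0.40 to 1.95; adjusted p = 0.482). Slc1a3 averaged 677 ± 525 TPM on HFHS and 375 ± 108 TPM on SC, with 1.05 ± 0.40 (adjusted p = 0.508). Both values were smaller without replicate 2 of HFHS hypothalamus. They were then 0.59 for Slc1a2 (adjusted p = 0.739) and 0.36 for Slc1a3 (adjusted p = 0.808). Glul gave 0.57 ± 0.22 (adjusted p = 0.516), Glud1 0.42 ± 0.17 (adjusted p = 0.546), and Slc1a4, Slc38a3 and Grm3 0.20 to 0.35. All 20 astrocyte markers had a positive value as well, with a median of 0.82, and 13 of them an unadjusted p under 0.05 with 0 called. Their part in the values of the 8 genes was not tested.

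Grm5 went the other way in the hypothalamus. It averaged 2.42 ± 1.1 TPM on HFHS and 4.71 ± 1.26 TPM on SC, a log2 fold change of -1.05 ± 0.26 (95% interval -1.56 to -0.54). The adjusted p was 0.472 with edgeR and 0.0349 with DESeq2. The groups overlapped in TPM and not in log2 CPM, at 1.87 to 2.72 on HFHS and 2.87 to 4.15 on SC, as was so for 0.342% of all genes with HFHS lower. In that region the 9 precursor markers all had negative values, with a median of -1.33 and 7 with an unadjusted p under 0.05. Their summed level was 498, 662 and 845 TPM as lowest, median and highest on HFHS and 671, 1010 and 1660 TPM on SC, with none of the 9 at 0. The 12 neuronal markers, with a median of -0.32, summed to 118 to 215 TPM on HFHS and 140 to 268 TPM on SC. Their part in the Grm5 value was not tested.

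In hippocampus and cortex the signs were mixed. In the hippocampus the 8 log2 fold changes ran from -0.70 (Grm5) to 0.34 (Glul), with adjusted p values of 0.876 or more. The interval for Slc1a2 there, -1.03 to 1.51, leaves room for a change in either direction. In the cortex they ran from -0.36 (Slc38a3) to 0.79 (Grm5), with adjusted p values of 0.664 or more. The interval for cortical Slc1a2, at 0.04 ± 0.30, was -0.55 to 0.64. The TPM of Glul separated the diets in cortex, at 1737 to 2758 on HFHS and 1183 to 1676 on SC, as in 0.476% of the genes tested (0.151% with HFHS higher). Its counts did not separate, with 0.34 ± 0.37 (adjusted p = 0.868, edgeR) and ranges of 10.87 to 12.49 log2 CPM on HFHS and 10.25 to 12.13 log2 CPM on SC. The value was -0.06 without the short replicate 6 of HFHS cortex, 0.66 without that of SC cortex and 0.35 without both, with edgeR adjusted p values of 0.955, 0.469 and 0.265. For the diet effect in hypothalamus against that in cortex, Grm5 had the smallest p of the 8, with a difference of -1.78 ± 0.60 (edgeR, adjusted p = 0.257), and Glud1 the next, at 0.82 ± 0.30 (adjusted p = 0.285).

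**Figure D5:**
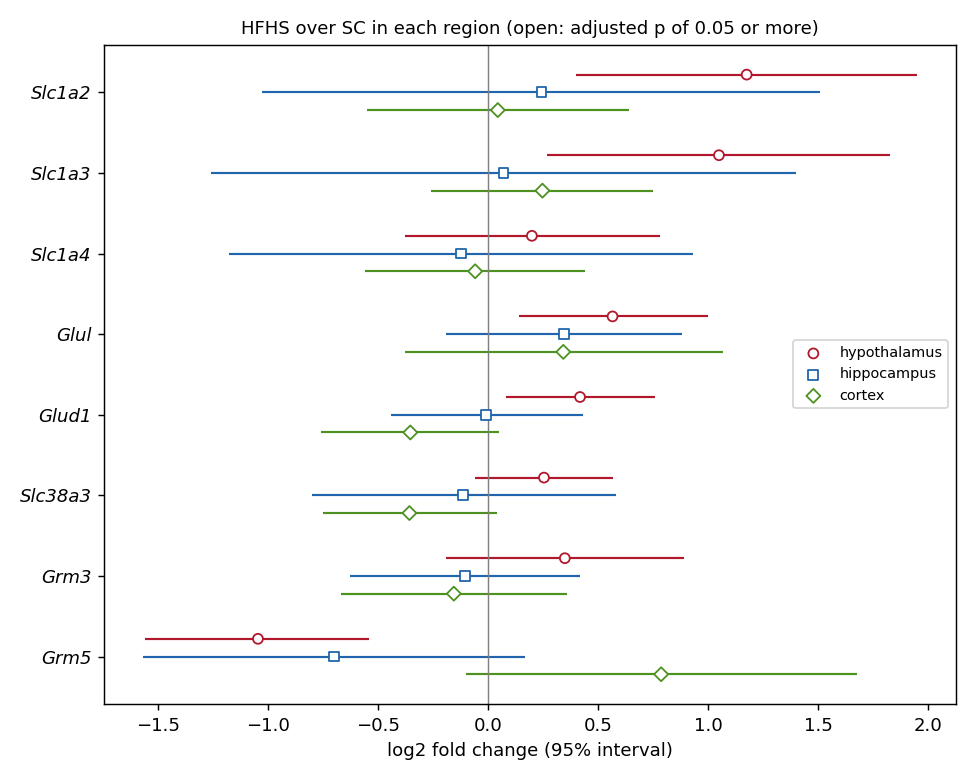
Log2 fold changes of the 8 genes, HFHS over SC, with 95% intervals in hypothalamus (red circles), hippocampus (blue squares) and cortex (green diamonds); all symbols are open because no adjusted p was under 0.05. The widest separation between regions is that of Grm5, at -1.05 in hypothalamus and 0.79 in cortex.

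Among 57 other genes of glutamate transport, metabolism and signalling, the regions differed in both directions. In hypothalamus over cortex 7 were higher and 14 lower on HFHS, where 23.9% of all genes were called, and 13 were higher and 17 lower on SC, where 36.1% were. Slc38a1, a glutamine carrier found mostly in neurons, had the smallest p of these on both diets (2.67 on HFHS, adjusted p = 1.03e-09; 3.06 on SC, adjusted p = 4.05e-11), opposite in sign to Slc38a3. Grik3, a kainate receptor subunit, was higher as well (adjusted p = 0.000167 on HFHS; 3.46, adjusted p = 2.12e-07, on SC). On HFHS Slc17a6 (1.92), the vesicular glutamate transporter of hypothalamic neurons, and the AMPA receptor subunit Gria1 (1.75) were also higher, and on SC the receptor subunits Grik4 (2.50) and Gria4 (1.61) were. Of 12 metabolic enzymes 0 were higher and 4 lower on HFHS, and 1 was higher and 5 lower on SC. Among the lower genes were Prodh, a proline-degrading enzyme that feeds glutamate (-2.41 on SC, adjusted p = 9.35e-07), and Gpt, alanine aminotransferase (-1.54 on HFHS, adjusted p = 0.00016). Arl6ip5, which binds the neuronal transporter EAAC1 in rodents, was lower on both (-1.20 on HFHS, -1.22 on SC), as were the scaffold Homer2 (-2.50 on HFHS) and Slc3a2 (-1.34 on SC), the heavy chain of the cystine-glutamate exchanger. The vesicular transporter of cortical neurons, Slc17a7, was lower too (-4.16 on HFHS, adjusted p = 5.12e-05).

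In hippocampus over cortex 7 of the 57 were higher and 17 lower on HFHS, where 24.2% of all genes were called, and 11 were higher and 14 lower on SC, where 30.8% were. Prodh was lower on both diets (-1.73 and -2.02), as was Gls2, a glutaminase (-1.29 and -1.58). Slc7a11, the light chain of the cystine-glutamate exchanger, was -2.09 on HFHS (adjusted p = 0.000262), and the mitochondrial glutamate carrier Slc25a18 was -2.27 on SC (adjusted p = 8.48e-05). Homer2 (-1.73 on HFHS) and Slc3a2 (-1.08 on SC) were the other lower genes named by rank. Higher genes were Slc38a1 (1.78 on HFHS), the kainate receptor subunit Grik1 (2.01 on HFHS and 2.77 on SC), the mitochondrial aspartate aminotransferase Got2 (0.95 on HFHS), the neutral amino acid transporter Slc1a5 (1.52 on HFHS), Gria4 (2.09 on SC) and the aspartate-glutamate carrier Slc25a13 (2.16 on SC). Mitochondrial enzymes and carriers of the list thus went both ways.

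Between hypothalamus and hippocampus 7 of the 57 were higher and 6 lower on HFHS, where 6.42% of all genes were called, and 9 were higher and 6 lower on SC, where 10% were. Grik3 was higher on both (2.99 and 3.40), as was the NMDA receptor subunit Grin3a (1.90 and 2.17). Gria1 (2.63) and the receptor Grm4 (3.56) were higher on HFHS, and Slc38a1 (1.18) and Rimklb (1.31), an enzyme that makes N-acetylaspartylglutamate, on SC. Gpt (-1.43 and -1.56) and Arl6ip5 (-0.62 and -0.93) were lower on both diets. Grin2a (-2.18) and Grin2b (-1.92), NMDA receptor subunits, were lower on HFHS, and Got2 (-1.29) and the receptor Grm8 (-2.67) on SC. Many of these genes are known from neurons, whose 12 markers summed to 152 to 585 TPM in HFHS cortex and 128 to 662 TPM in SC cortex, and to 268 TPM or less in the other groups, with none at 0; their part was not tested. For diet, 0 of the 57 were called in any region.

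The 8 genes varied from library to library along with different genes. With the mean of each group taken out, the log2 CPM of Slc1a2 followed Ddah1 (r = 0.964), Aldoc (0.963), Tubb2b (0.958), Timp4 (0.956) and Scg3 (0.955) most closely over 35 libraries, among 9802 genes. Slc1a3 followed Acsbg1 (0.987), Aldh1l1 (0.983) and S1pr1 (0.975), and Slc1a4 followed Tril (0.951), Fam198a (0.950) and Slc41a1 (0.949). Aldoc, Acsbg1 and Aldh1l1 are on the astrocyte marker list, and astrocyte content, depth and processing are common to all genes of a library. Glul lay nearest to Mageh1 (0.913), Fdft1 (0.903) and Hacd2 (0.902), and Glud1 to Asrgl1 (0.886), Tpmt (0.870) and Ugp2 (0.869). Slc38a3 lay nearest to Pfkp (0.872), Gys1 (0.864) and St6galnac4 (0.860), and Grm3 to Washc2 (0.921), Fam234b (0.916) and Add3 (0.904). Among the genes nearest to Grm5 were the neuronal genes Scn8a (0.783) and Syt1 (0.745). Among the 8, Slc1a3 was closest to Slc1a4 (0.87) and Slc1a2 (0.85), Glud1 to Slc1a2 (0.80), and Grm5 correlated with none above 0.24. These correlations are descriptions, with no test.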

How the data were processed

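Sorted cells were processed with SMART-Seq v4, a kit that does not mark strand, per the labels' protocols. The deposited files give estimated counts and TPM per transcript, made by the authors with Salmon on GRCm38 after FastQC, per the submitters' processing notes; the Salmon version is not given in the sources used here, nor is the transcriptome. Transcripts were joined to GENCODE M21 (139852 of 140948 matched, and the rest held 0.214 to 0.535% of reads) and summed to 54119 genes. Summed counts were rounded and tested with edgeR 4.0.16 (R 4.3.3; low-count filter, TMM, robust quasi-likelihood, Benjamini-Hochberg over all genes tested): diet within each region, and regions and interactions in 1 model of 6 groups. Differences are log2 fold changes with SE. For edgeR the SE was derived from the log2 fold change and the F statistic of the test. Intervals given as 95% are 1.96 SE, a normal approximation, and can exclude 0 where the test does not. Slc1a4 in SC hypothalamus over hippocampus is such a case, at 0.02 to 1.71 with an unadjusted p of 0.053 (edgeR). Alternatives were DESeq2 1.42.0, limma 3.58.1 on log2(TPM + 1), RLE scaling, no filter, fits on the compared groups alone, a replicate block, and left-out libraries. All log2 CPM values include the TMM factor of the library and a prior count of 2. Marker-relative levels are log2 CPM minus the mean of 20 astrocyte markers. Slc1a2 transcript shares were compared with exact permutation tests (Python 3.11.15, scipy 1.17.1). The edgeR diet, region and interaction contrasts and a limma marker-relative contrast were checked on simulated counts with no difference in astrocyte content between libraries. The permutation tests were not simulated. Slc1a2, Slc1a3, Glul, Grm3 and Grm5 overlap other annotated genes, whose reads cannot be told apart, at means of 1.32 TPM or less; for the low Grm5 the highest is 0.404 TPM (Gm44848). The members and lists were chosen with earlier results of these data known. Besides the 8 members, the text names up to 4 other glutamate genes with the smallest p in each direction of a comparison, Aldh1l1 as a marker, and the 5 (Slc1a2) or 3 genes most correlated with each member, among genes whose log2 CPM averaged 3 or more; a gene that this rule names for Grm5 is not reported here. No label says how animals were assigned to pools, so p-values measure the spread between pools of 2 animals.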

Additional observations from a re-analysis of the deposited data

Results flagged for a closer look

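Of 60 checks of a group of 4 to 10 libraries for 1 library far from the rest, 11 found one, where chance alone gives about 3 (1 in 20 groups). In HFHS hypothalamus, replicate 2 was far above the other 4 libraries for Slc1a2 (228 TPM), Slc1a3 (1607 TPM), Slc1a4 (84.4 TPM) and Grm3 (109 TPM). In SC cortex, replicate 6, one of the libraries with a short mean transcript length, was far below the others for Glud1 (63.5 TPM), Slc38a3 (46.3 TPM) and Grm3 (34.2 TPM). Grm3 was far above the rest in replicate 2 of HFHS hippocampus (217 TPM), Glud1 in replicate 2 of SC hippocampus (142 TPM), Grm5 in replicate 4 of SC hippocampus (6.14 TPM) and Glul in replicate 1 of SC hypothalamus (818 TPM). These values are in TPM. In log2 CPM 3 of the 11 were far from the rest (Slc1a3 and Slc1a4 in replicate 2 of HFHS hypothalamus, Glud1 in replicate 2 of SC hippocampus), and Glud1 in replicate 6 of SC cortex lay within the others, at 8.72 against 8.54 to 9.08. In CPM without the TMM factor, Glud1 in that library was 254, below the others at 368 to 480.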

How the results depend on the processing

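No called value changed sign under any alternative run. Counts of calls did change, and the cause was not tested. Where members are counted below without a count of all genes, the share of all genes in that setting is not given. Such member counts cannot be set against all genes. The main fits called 6.42% of all genes in HFHS and 10% in SC hypothalamus against hippocampus. They called 36.1% in SC hypothalamus against cortex and 24.2% in HFHS hippocampus against cortex. With DESeq2, diet calls were 87 in hypothalamus (1 of the 8 genes, lower), 15 in hippocampus and 504 in cortex, against 0 with edgeR, and interaction calls were 141, 23 and 4 (hypothalamus against cortex, hippocampus against cortex, hypothalamus against hippocampus). DESeq2 also gave 2178 calls in HFHS hypothalamus against hippocampus, against 1385 (members 1 higher and 1 lower), 1 member higher in SC hypothalamus against cortex, and 2 lower in SC hypothalamus against hippocampus. RLE scaling gave 28 diet calls in cortex and no filter 32. Fits on the compared groups alone gave 3783 calls in SC hypothalamus against hippocampus, against 2157 (members 1 higher and 3 lower), and 1 member higher in SC hypothalamus against cortex. On log2(TPM + 1), 5 members were lower in HFHS hippocampus against cortex, 1 was higher in SC hypothalamus against cortex, and 1 gene was called for the interaction of hypothalamus and cortex.

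The labels do not say that replicate numbers pair samples, and the numbers were not used as pairs. Same-numbered libraries correlated above 0.1 in 5 of 6 pairs for diet in cortex, in 4 of 5 in hippocampus, and in 1 to 3 pairs of each other comparison; in no comparison did every library correlate best with its own number. With the replicate block there were 412 diet calls in cortex, 299 interaction calls in hypothalamus against cortex (1 member higher, Glud1, 0.89, adjusted p = 0.0489), and 2597 calls in HFHS hypothalamus against hippocampus (members 2 higher, 1 lower). With the block 1 member was higher in SC hypothalamus against cortex, and 1 higher and 2 lower in SC hypothalamus against hippocampus. Relative to the markers the block gave 12481 calls on HFHS (5 members lower) and 946 on SC in hypothalamus against hippocampus.

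Without the 3 short libraries there were 8 diet calls in hypothalamus, 515 in cortex, 475 interaction calls in hypothalamus against cortex, 2417 calls in HFHS hypothalamus against hippocampus (1 member lower), 3 members lower on SC there, and 10 of 18 transcript share tests passed. Relative to the markers, 1 member was then lower in HFHS and 0 in SC hippocampus against cortex, and 1 in SC hypothalamus against hippocampus. An alternative added after seeing the data also left out replicate 2 of HFHS hypothalamus, and gave 2 members lower on HFHS and 3 on SC in hypothalamus against hippocampus. Marker-relative levels on log2(TPM + 1) gave 1 member lower in hypothalamus and 0 in hippocampus against cortex on either diet, and 160 calls (0 members lower) in SC hypothalamus against hippocampus. With no filter they gave 31901 calls in HFHS hippocampus against cortex (1 member lower), 31281 on SC (0 lower), 29605 in SC hypothalamus against cortex and 2385 in HFHS hypothalamus against hippocampus.

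Leaving out single libraries gave 0 to 8 diet calls in hypothalamus, 0 to 141 in cortex, 0 to 180 interaction calls in hypothalamus against cortex and 0 to 1 in hippocampus against cortex. It gave 797 to 1401 calls in HFHS hypothalamus against hippocampus (members 0 to 1 higher, 0 to 1 lower), 1298 to 2184 on SC (0 to 1 higher, 1 to 2 lower), 0 to 1 members higher in SC hypothalamus against cortex, and 0 to 9 transcript share tests passed. Relative to the markers it gave 4586 to 11692 calls in HFHS hypothalamus against cortex, 256 to 8985 on HFHS and 170 to 510 on SC in hypothalamus against hippocampus (members 1 to 2 lower on SC), 1 to 2 members lower in HFHS hippocampus against cortex, and 2 to 4 higher and 0 to 1 lower on SC. Grm5, the least abundant of the 8, had 81 to 999 estimated reads in a library, and Slc1a2-204 was assigned 0 to 9502. The part of depth in these results was not tested.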
